A study of Mus musculus with 6 samples.

Results

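CC chemokine ligands are small secreted proteins that draw leukocytes along a gradient, and they take their name from a pair of neighbouring cysteines near the start of the mature protein. They act on G protein-coupled receptors of the CCR family. Ccl2, Ccl7 and Ccl12 are known as attractants of monocytes through CCR2, while Ccl3, Ccl4 and Ccl5 attract macrophages, T cells and other leukocytes. Ccl6 and Ccl9 belong to a rodent branch that acts through CCR1, and Ccl17 and Ccl22 are ligands of CCR4. In the injured central nervous system, microglia and infiltrating macrophages are known sources of several of them.

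The genes followed here were 10 ligands of the 55335 gene identifiers in the table: Ccl2, Ccl3, Ccl4, Ccl5, Ccl6, Ccl7, Ccl9, Ccl12, Ccl17 and Ccl22. They were chosen by name, with the FPKM values of the same WT and KO comparison already known, so their differences between the arms are given as a description without a test. The libraries came from Cd177 WT primary microglia of neonatal C57BL/6 mice, detached from brain cultures on day 14. These were kept for 24 h in direct contact with neutrophils that magnetic sorting had taken from spinal cord lesions at 3 dpi, and were then recovered by flow sorting as Ly6G- cells. The donors of the neutrophils were Cd177 WT mice for 3 libraries (the WT arm) and Cd177 KO mice, which lack the neutrophil surface protein CD177 in all their cells, for the other 3 (the KO arm). The microglia carried intact Cd177 in both arms, and the comparison asks how the genotype of the neutrophils bears on the microglia beside them. No library of microglia without neutrophils was analysed here, so a level in either arm cannot be set against a resting level. Nothing in the labels says that libraries of 1 arm came from separate cultures or animals, so the spread between them may be technical.

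Values are FPKM, fragment numbers scaled to 1 kilobase of transcript and to 1e+06 mapped fragments, which allow levels of different genes to be compared per length. FPKM values within an arm correlated across genes at r of 0.988 to 0.989 on the log scale, and between arms at 0.956 to 0.959. Depth, read from the smallest steps between low values, was about 15.6 to 16.9 with WT neutrophils and 15.9 to 19.2 with KO neutrophils, in units of 1e+06 fragments. The mitochondrial share of all FPKM was 11.1% to 11.3% with WT and 14.3% to 14.6% with KO neutrophils, and the part of this in the ligand differences was not tested. Of 15 microglia markers, 5 passed a mean of 1 FPKM (Tyrobp, Csf1r, Trem2 and Cx3cr1 among them), whereas Sall1, Fcrls and C1qa were listed at 0 in all 6 libraries and P2ry12 and Tmem119 stayed under 1 FPKM. All 12 shared macrophage markers passed. The labelled cell type therefore rests on macrophage-lineage markers, with several defining microglia markers absent. Cd177 itself was at 0.477, 0.113 and 0.151 FPKM in the WT arm and 0.109, 0.0217 and 0.0845 in the KO arm. The ranges did not overlap, with 1.03-fold between the nearest libraries, but all values were under 1 FPKM and the microglia carried the intact gene in both arms, so this is no firm check of the labels (exact two-sided permutation p = 0.1, the smallest that 3 against 3 allows).

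The shared feature of the family is visible in the coding sequences. Each member was read from its GENCODE M21 transcript (GRCm38), and 36 coding bases of the members shown are printed 5′ to 3′, with the 2 codons of the adjacent cysteine pair in capitals.
Ccl2: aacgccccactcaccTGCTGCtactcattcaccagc
Ccl7: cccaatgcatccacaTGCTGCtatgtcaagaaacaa
Ccl12: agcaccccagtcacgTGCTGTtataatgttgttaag
Ccl4: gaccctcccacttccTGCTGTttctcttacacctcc
Ccl5: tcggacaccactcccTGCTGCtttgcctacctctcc
Ccl6: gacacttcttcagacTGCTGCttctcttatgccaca
Ccl9: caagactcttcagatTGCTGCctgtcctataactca
Ccl17: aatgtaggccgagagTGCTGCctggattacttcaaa
Ccl22: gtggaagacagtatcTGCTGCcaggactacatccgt
Every member held 1 such pair, spelled TGCTGC in 8 of them and TGCTGT in Ccl4 and Ccl12. The pair lay in exon 2 of the transcript except in Ccl6 and Ccl9, where it lay in exon 3. The stretch from Ccl2 covers the pair at chr11:82036506-82036511, and that from Ccl7 at chr11:82046538-82046543, both on the plus strand. The proteins ranged from 91 residues (Ccl5) to 148 (Ccl2). Ccl3 and Ccl4 were the most alike, with 59.8% identical residues over the longer protein, followed by Ccl7 and Ccl12 with 55.8% and Ccl6 and Ccl9 with 53.3%. At the level of reads the members were distinct: the longest exact run shared by any pair was 25 bases (Ccl6 and Ccl9), and no 31-base word of Ccl2, Ccl3, Ccl4, Ccl7, Ccl12, Ccl17 or Ccl22 occurred in another annotated gene. The share of such words found elsewhere was 0.54% for Ccl5, 1.02% for Ccl6 and 3.98% for Ccl9.

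The summed level of the ligands was lower in all 3 KO libraries. In the WT arm the 10 genes added up to 5602, 5660 and 5527 FPKM, which was 1.78%, 1.79% and 1.76% of all FPKM in these libraries. In the KO arm they added up to 781, 796 and 781 FPKM, or 0.239%, 0.246% and 0.239%. The 3 WT libraries lay far above the 3 KO libraries, and within an arm the libraries were close to each other (5596 ± 66.7 and 786 ± 8.2 FPKM, SD, n = 3). These are bulk libraries, so fewer cells that make a ligand and less RNA per cell cannot be told apart.

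**Figure D1:**
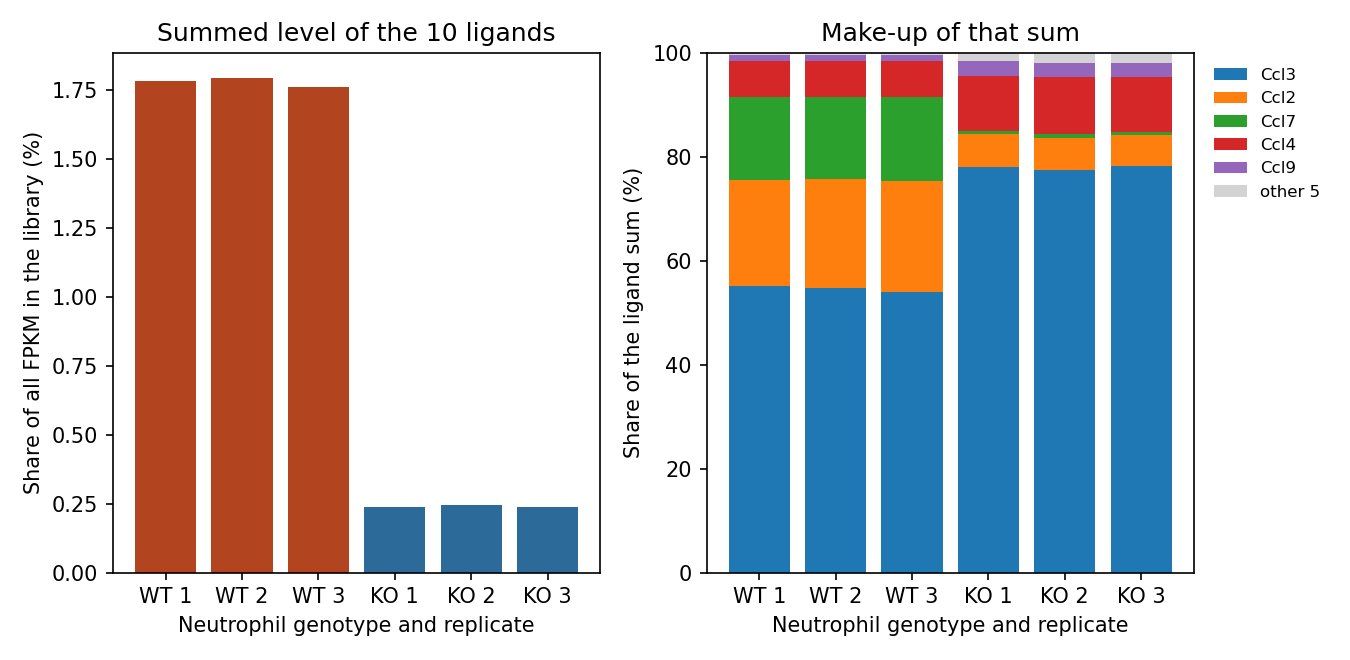
Left, the summed FPKM of the 10 CC ligands as a percentage of all FPKM in each library. Right, the share of that sum held by each ligand. WT and KO are the genotypes of the co-cultured neutrophils and the bars are single libraries. The sum lies at 1.76% to 1.79% with WT and 0.239% to 0.246% with KO neutrophils, and Ccl3 takes a larger share in the KO arm.

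The make-up of the sum differed as well. Ccl3 held 54.6% ± 0.604 of it in the WT arm and 78.0% ± 0.397 in the KO arm (SD, n = 3). Ccl7 held 16.04% ± 0.22 in the WT arm and 0.663% ± 0.0487 in the KO arm, and Ccl2 held 20.9% ± 0.419 and 6.11% ± 0.272. The monocyte attractants Ccl2 and Ccl7 thus held a smaller share in the KO arm, and Ccl3 a larger one although its own level was lower there.

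Among the ligands of CCR2, Ccl2 (ENSMUSG00000035385, chr11:82035571-82037453, plus strand, 3 exons) stood at 1149, 1179 and 1179 FPKM in the WT arm and at 49.6, 49.1 and 45.4 FPKM in the KO arm. The lowest WT library lay 23.2-fold above the highest KO library. The ratio of the means was 24.3, and the difference on the log2(FPKM + 1) scale was -4.58 ± 0.0412 (SE from the 3 libraries of each arm). By mean level Ccl2 ranked 29 among all genes in the WT arm and 917 in the KO arm.

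Ccl7 (ENSMUSG00000035373, chr11:82045712-82047525, plus strand, 3 exons), the neighbour of Ccl2 and an attractant of monocytes and other leukocytes, stood at 892, 899 and 900.5 FPKM in the WT arm. In the KO arm it stood at 4.88, 5.71 and 5.06 FPKM. The arms were separated by 156-fold at their nearest libraries, and the ratio of the means was 172. On the log2(FPKM + 1) scale the difference was -7.18 ± 0.058, which ranked 1 among the falls of all 11395 genes tested. That place depends on the scale. With a pseudocount of 0.1 Lcn2 (-8.65) and Cxcl2 (-7.44) lay below Ccl7 (-7.40). On the common sum Lcn2 (-7.80) did so too, with Ccl7 at -7.39. Only genes followed over the alternatives are compared here, so the lowest gene on these scales is not given. Csf3, at means of 124.8 FPKM in the WT and 0 in the KO arm, was not followed. With a KO mean of 0 its difference grows as the pseudocount shrinks. Under the depth reading above the KO level of Ccl7 would correspond to roughly 62 to 86 fragments per library. Such fragment numbers, here and for the low members, are rough estimates, since most low values did not come out as whole fragments under that reading.

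Ccl12 (ENSMUSG00000035352, chr11:82101845-82103400, plus strand), the third CCR2 ligand of this chromosomal group, stood at 1.04, 1.07 and 1.17 FPKM in the WT arm. It was listed at 0 in all 3 KO libraries, so no fold is given. The WT values amount to at least about 8.9 fragments in each library. In the WT arm the Ccl2 level was 1072 ± 55.9 times that of Ccl12 (SD, n = 3), so the genes of this group differed widely in level although they lie side by side.

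Among the ligands that attract macrophages and T cells, Ccl3 (ENSMUSG00000000982, chr11:83647844-83649355, minus strand, 3 exons) was the most abundant ligand in both arms. It stood at 3088, 3104 and 2983 FPKM in the WT arm and at 610, 617 and 612 FPKM in the KO arm. The arms did not overlap, and the ratio of the means was 4.99, with a log2(FPKM + 1) difference of -2.32 ± 0.0187. In rank by mean level Ccl3 was at 10 in the WT arm and still at 46 in the KO arm. Ccl3 was therefore lower in the KO arm and yet remained one of the most abundant transcripts there.

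Ccl4 (ENSMUSG00000018930, chr11:83662584-83664683, plus strand, 3 exons), the closest relative of Ccl3 by protein identity, stood at 383, 388 and 375 FPKM in the WT arm and at 82.2, 86.3 and 82.0 FPKM in the KO arm. The ratio of the means was 4.57 and the log2(FPKM + 1) difference -2.18 ± 0.0275. The ratio of Ccl3 to Ccl4 was 8.01 ± 0.0628 in the WT arm and 7.34 ± 0.171 in the KO arm. The libraries of the arms did not overlap in this ratio, but the shift was small beside that of neighbouring Ccl2 and Ccl7, where the ratio moved from 1.30 ± 0.0131 to 9.25 ± 0.819.

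Ccl5 (ENSMUSG00000035042, chr11:83525778-83530518, minus strand), an attractant of T cells and monocytes, was a low transcript here. It stood at 7.76, 6.42 and 7.23 FPKM in the WT arm and at 0.714, 0.573 and 0.806 FPKM in the KO arm. No KO library reached a WT library, and the ratio of the means was 10.2. The log2(FPKM + 1) difference of -2.26 ± 0.0908 is smaller than this ratio implies because the added 1 FPKM exceeds the KO level. About 5.7 to 8.2 fragments per library stand behind the KO values, so the ratio is loosely fixed, with 7.97 between the nearest libraries and 13.5 between the farthest.

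The rodent branch, Ccl9 and Ccl6, differed from each other. Ccl9 (ENSMUSG00000019122, chr11:83572919-83578636, minus strand) stood at 69.8, 69.6 and 69.2 FPKM in the WT arm and at 22.6, 21.9 and 21.005 FPKM in the KO arm. The ratio of the means was 3.19 and the log2(FPKM + 1) difference -1.63 ± 0.0297, with no overlap. Ccl6 (ENSMUSG00000018927, chr11:83587882-83593087, minus strand), the next member along the chromosome, stood at 11.3, 13.1 and 11.9 FPKM in the WT arm and at 11.4, 15.0 and 14.9 FPKM in the KO arm. The Ccl6 ranges overlapped, and the log2(FPKM + 1) difference was 0.16 ± 0.135. The ratio of Ccl9 to Ccl6 was 5.77 ± 0.425 in the WT arm and 1.62 ± 0.321 in the KO arm.

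The CCR4 ligands were at or near 0. Ccl22 (ENSMUSG00000031779, chr8:94745590-94751699) was listed at 0.0437, 0.0276 and 0 FPKM in the WT arm and at 0 in all 3 KO libraries. Ccl17 (ENSMUSG00000031780, chr8:94810453-94812036) was listed at 0 in 5 libraries and at 0.0687 FPKM in KO replicate 3. Each nonzero value corresponds to about 0.7 to 1.6 fragments, so no difference between the arms was detectable at this depth. Of 30 ubiquitous genes, chosen after the data were seen, none was at 0 in all libraries and all passed the filter (7 fell and 8 rose in limma). Because they were chosen with their values known, they cannot tell whether a 0 listed for a low gene is true absence.

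**Figure D2:**
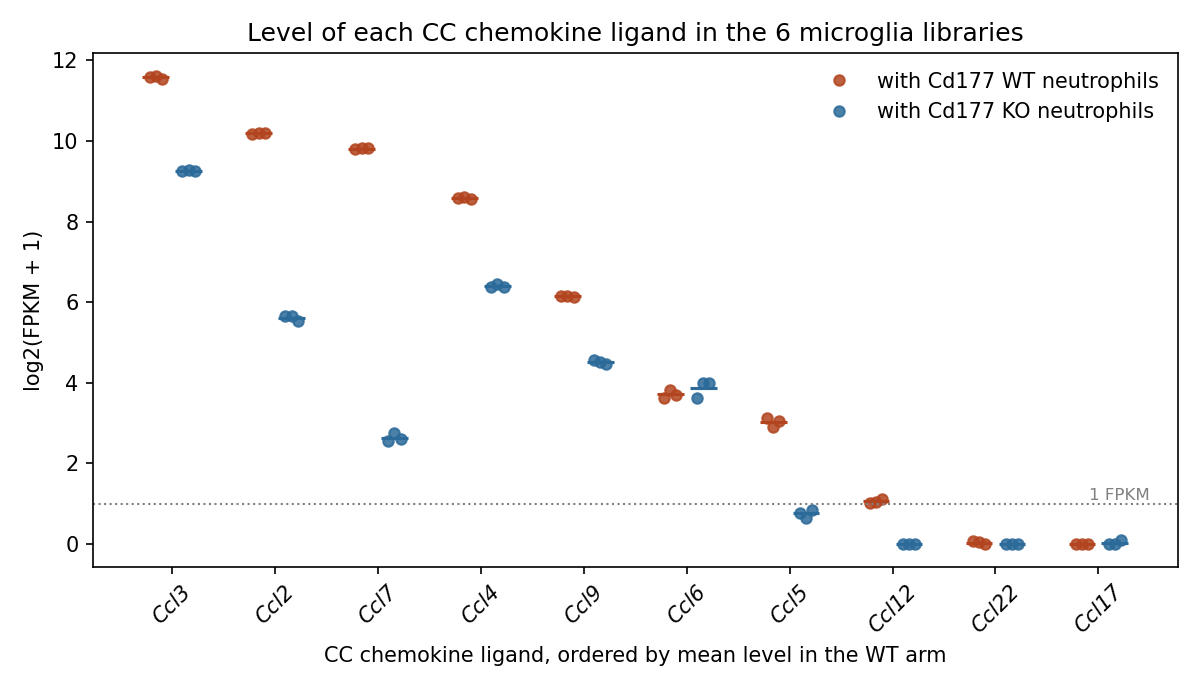
Level of each ligand as log2(FPKM + 1) in the 6 libraries. Points are single libraries, bars are arm means, and the dotted line marks 1 FPKM. For Ccl3, Ccl2, Ccl7, Ccl4, Ccl9, Ccl5 and Ccl12 every point of the WT arm lies above every point of the KO arm. Ccl6 overlaps, and Ccl22 and Ccl17 lie at or near 0.

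In order of level, the WT arm ran from Ccl3 through Ccl2, Ccl7, Ccl4, Ccl9, Ccl6, Ccl5 and Ccl12 to Ccl22 and Ccl17, and neighbours in this order down to Ccl12 did not overlap. In the KO arm the order was Ccl3, Ccl4, Ccl2, Ccl9, Ccl6, Ccl7 and Ccl5, again without overlap between neighbours. Ccl7 took the third place in the WT arm and the sixth in the KO arm, and Ccl4 stood below Ccl2 in the WT arm and above it in the KO arm.

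A filter on a mean of 1 FPKM over the 6 libraries left 7 members, and Ccl12, Ccl17 and Ccl22 did not pass. Of these 7, 6 had every WT library above every KO library, against 24.6% of the 11395 genes that passed. Counting all 10, 7 had this order, Ccl12 included. The median log2(FPKM + 1) difference was -2.26 over the 7 members and 0.02 over all genes. Because the members were chosen on this comparison, these counts describe them and are no evidence of a group effect. In a limma fit of all genes, 4930 (43.3%) were called at a Benjamini-Hochberg adjusted p under 0.05, 2141 (18.8%) lower and 2789 (24.5%) higher with KO neutrophils. The split depends on scaling: 43.4% of calls were lower as deposited, 43.7% after median centring and 55.0% after each library was set to a common sum, which also makes the added 1 smaller relative to the values.

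**Figure D3:**
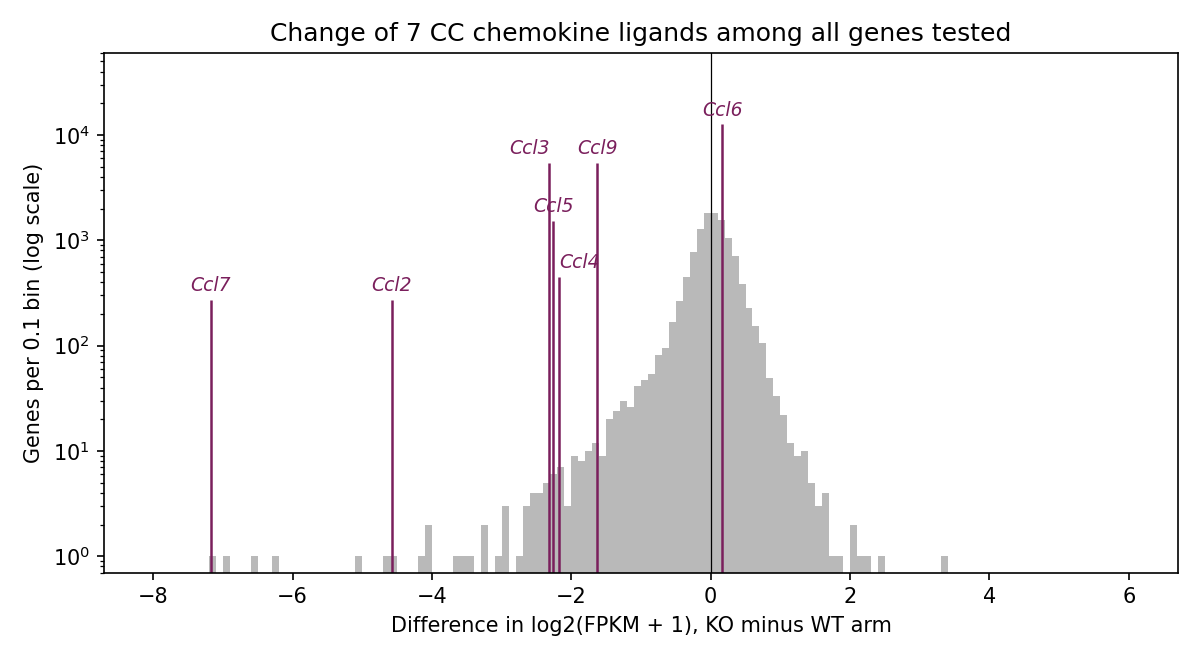
Histogram of the difference in log2(FPKM + 1), KO minus WT arm, for all 11395 genes tested (count axis on a log scale), with vertical lines at the 7 ligands that passed the filter. Line heights only make room for the names. Ccl7 sits at -7.18 and Ccl2 at -4.58, Ccl3, Ccl5 and Ccl4 lie between -2.32 and -2.18, Ccl9 at -1.63 and Ccl6 at 0.16.

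The members lie in 3 groups on their chromosomes. Ccl2, Ccl7 and Ccl12 span 67.8 kb of chromosome 11, with Ccl11 (eotaxin, an eosinophil attractant) between Ccl7 and Ccl12. Ccl11 was listed at 0 in all 6 libraries although both its flanking members were above 0 in the WT arm. The antisense gene Gm17268 overlaps Ccl2 without sharing an exon base and was listed at 0 throughout.

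Ccl5, Ccl9, Ccl6, Ccl3 and Ccl4 span 138.9 kb of the same chromosome. Between Ccl9 and Ccl3, and antisense to Ccl6, lies E230016K23Rik, a noncoding transcript that rose from 4.96 to 6.80 FPKM between the arm means (log2 difference 0.39, limma adjusted p = 0.00474, 0.00425 to 0.0189 over 13 alternatives). It shares no exon base with Ccl6, yet the strand used in counting is not given in the sources used here, so reads of unspliced RNA from the 2 genes cannot be told apart. Rpl9-ps1, also in this group and listed as protein coding in the annotation, reached at most 0.109 FPKM. Within 138.9 kb, then, a ligand that overlapped between the arms (Ccl6) lay between ligands that were 3.19-fold (Ccl9) and 4.99-fold (Ccl3) lower in the KO arm.

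Ccl22 and Ccl17 flank Cx3cl1 (fractalkine) and the pseudogene Gnb1-ps3 in 66.4 kb of chromosome 8. Cx3cl1 was listed at 0 in the WT arm and had a mean of 0.073 FPKM in the KO arm, and Gnb1-ps3 was listed at 0 throughout. No gene of this group passed the filter.

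**Figure D4:**
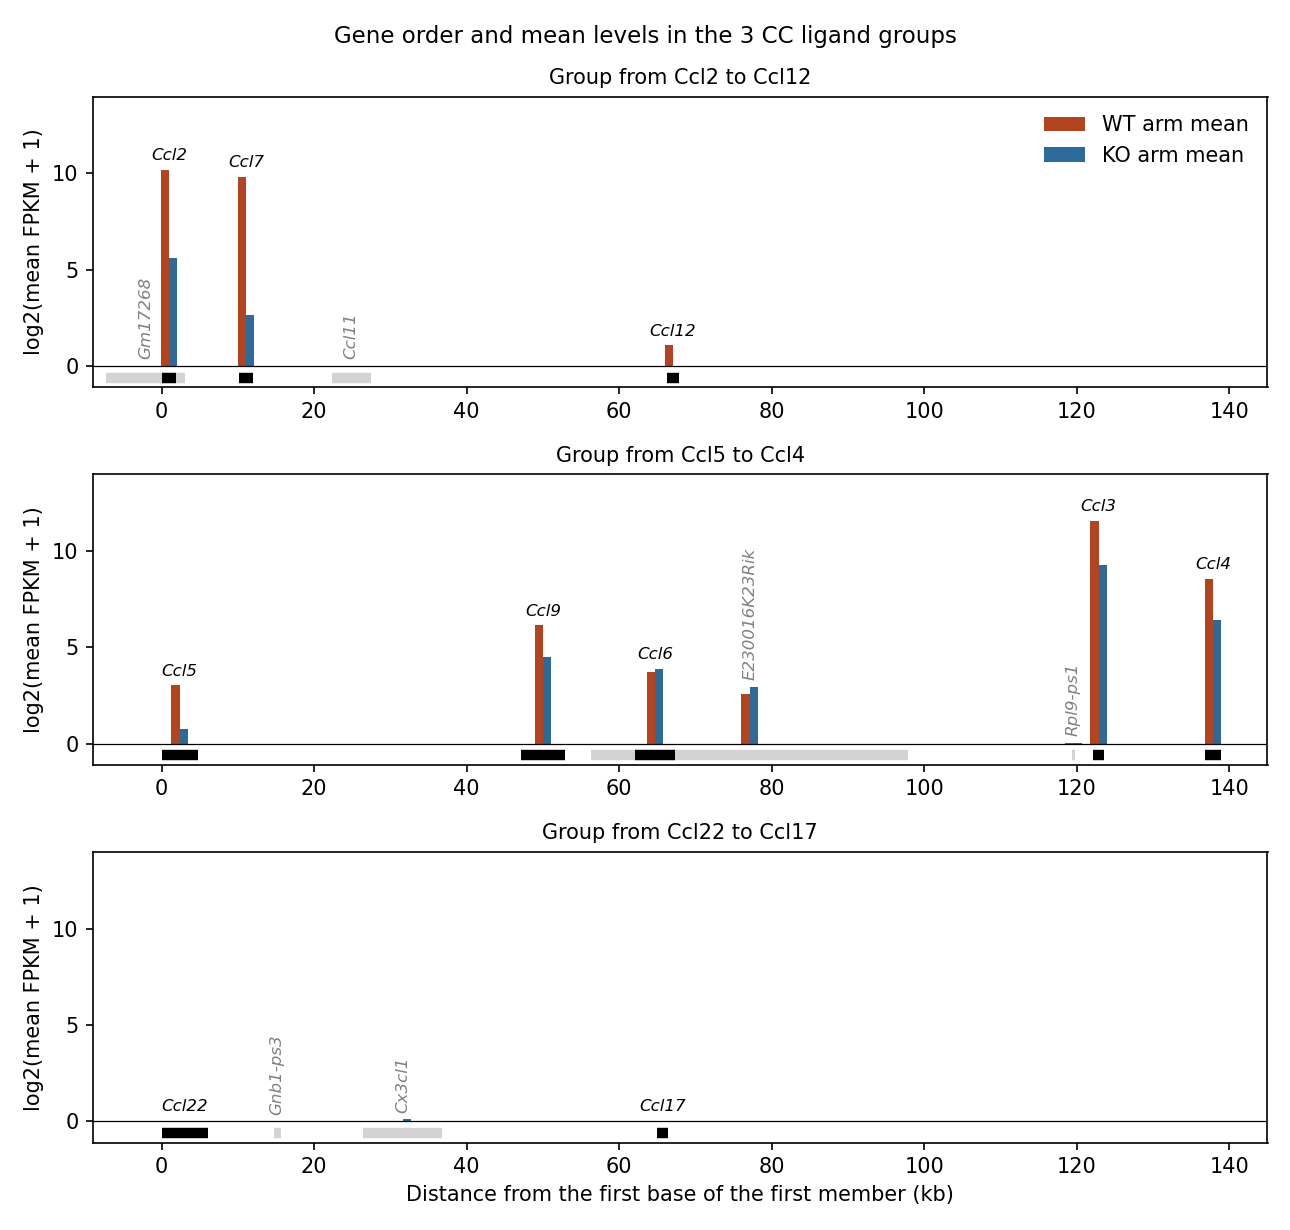
Arm mean of each gene in the 3 chromosomal groups, as log2(mean FPKM + 1), at its distance in kb from the first base of the first member. Orange bars are the WT arm, blue bars the KO arm, black blocks the spans of members and grey blocks those of other genes. Bars within a group range from 0 (Ccl11) to the Ccl2 and Ccl3 levels, and Ccl6 has bars of like height between Ccl9 and Ccl3.

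Promoter sequence was printed for Ccl9 and Ccl6, the pair that parted, and for Ccl3, the most abundant ligand. RefSeq promoter entries (GRCm38.p6) were matched for Ccl3, Ccl6, Ccl9, Ccl12, Ccl17 and Ccl22, 6 of 10. The last 120 bases before the RefSeq start are given 5′ to 3′ on the minus strand, at chr11:83578637-83578756 for Ccl9, chr11:83593088-83593207 for Ccl6 and chr11:83649379-83649498 for Ccl3, with motif matches in capitals.
Ccl9: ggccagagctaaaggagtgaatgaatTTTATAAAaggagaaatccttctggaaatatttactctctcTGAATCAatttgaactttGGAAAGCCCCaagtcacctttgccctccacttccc
Ccl6: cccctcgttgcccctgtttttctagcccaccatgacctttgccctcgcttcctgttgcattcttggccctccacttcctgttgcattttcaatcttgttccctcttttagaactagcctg
Ccl3: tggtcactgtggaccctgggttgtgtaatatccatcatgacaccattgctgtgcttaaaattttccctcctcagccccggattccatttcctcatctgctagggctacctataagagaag
Both strands of 250 bases before the start were searched for the κB consensus, the interferon-stimulated response element GAAANNGAAA, the AP-1 motif TGANTCA, the gamma-activated site TTCNNNGAA, TATAAA and CCAAT. Ccl9 held a κB match at -35 to -26, an AP-1 match at -53 to -47 and 3 TATAAA matches, 2 of which overlap. Ccl12 held TATAAA at -31 to -26 and Ccl17 a gamma-activated site at -99 to -91. Ccl3, Ccl6 and Ccl22 held none of these letters in the window. The RefSeq window of Ccl22 ends at chr8:94745683, inside the GENCODE gene that starts at chr8:94745590, so part of it is annotated gene sequence. Of all 32851 promoters, 7.25% held the κB consensus, 2.98% the interferon-stimulated response element, 6.75% TGANTCA, 7.02% TTCNNNGAA, 12.4% TATAAA and 33.9% CCAAT. A match is a description and not a site or a cause.

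The other CC ligands were nearly silent. Of 12 listed, 9 were at 0 in all 6 libraries, including Ccl8, Ccl11, Ccl19 and Ccl20, and 1 passed the filter. This was Ccl25, a thymus and gut ligand of CCR9, at 2.59 ± 0.202 FPKM in the WT arm and 1.98 ± 0.271 in the KO arm (SD, n = 3). Its limma call (log2 difference -0.27, adjusted p = 0.0464, 0.0341 to 0.127 over the alternatives) was kept in 5 of 12 alternatives.

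Of 15 CC receptor genes, 2 passed the filter and both fell with KO neutrophils (18.8% of all genes fell), by a median log2 difference of -1.32. Ccr1, the receptor of Ccl3, Ccl5, Ccl6, Ccl7 and Ccl9, stood at 14.3, 13.8 and 14.1 FPKM in the WT arm and at 9.86, 9.49 and 10.02 FPKM in the KO arm (log2 difference -0.48 ± 0.0244, limma adjusted p = 0.000112). Ccrl2, an atypical receptor that binds chemerin and does not signal, stood at 5.76, 7.53 and 5.65 FPKM and at 0.667, 0.608 and 0.622 FPKM (-2.15 ± 0.117, adjusted p = 1.88e-05). Ccr2, the receptor of Ccl2, Ccl7 and Ccl12, did not exceed 0.0109 FPKM in any library, and it was named after its values had been seen.

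Among ligands of the CXC, XC and CX3C families, 4 of 17 passed, 2 fell and 1 rose (18.8% and 24.5% of all genes did so), with a median log2 difference of -1.17 over these 4 and 0.02 over all genes. Cxcl2, a neutrophil attractant, stood at 119 to 124 FPKM with WT neutrophils and at 0.547 to 0.661 with KO neutrophils (-6.25 ± 0.0345, limma adjusted p = 4.84e-09). The interferon-induced T cell attractant Cxcl10 went from 5.89 ± 0.633 to 0.313 ± 0.227 FPKM (adjusted p = 3.59e-05). Cxcl14 rose from 19.4 ± 0.438 to 31.4 ± 0.397 FPKM (SD, n = 3, adjusted p = 1.05e-05 with limma), and Pf4 did not pass the test (48.1 and 50.2 FPKM, adjusted p = 0.24).

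Of 26 tested regulators of chemokine transcription 20 fell, 1 rose and 5 did not pass, where 18.8% of all genes fell and 24.5% rose, with a median log2 difference of -0.69 against 0.02 for all genes. The list was written with results of these libraries known. NF-κB is a set of dimeric transcription factors that inflammatory signals release from inhibitors such as IκBα, and inhibitors are themselves among its targets. Nfkbia, which encodes IκBα, stood at 74.6, 76.0 and 71.4 FPKM in the WT arm and at 14.0, 12.6 and 11.9 in the KO arm (-2.44 ± 0.0694). Nfkbiz, a nuclear IκB protein that acts as a coactivator, went from 41.2 ± 0.219 to 4.12 ± 0.316 FPKM, and Nfkb2, an NF-κB subunit precursor, from 34.8 ± 0.766 to 14.1 ± 0.0378. The interferon regulatory factor Irf7 went from 15.6 ± 0.876 to 2.20 ± 0.111 FPKM and the AP-1 subunit Junb from 72.2 ± 1.25 to 26.3 ± 0.828. Adjusted p for these 5 lay between 2.46e-07 and 1.1e-06 (limma), and all were called in each of 13 alternatives. Stat6, named after its value was seen, was the gene that rose (0.21, adjusted p = 0.000989), and Irf1, Irf3, Irf5, Irf8 and Stat2 did not pass.

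Of 30 tested chemokine receptor signalling genes 8 fell, 10 rose and 12 did not pass, and the median log2 difference was -0.005. These counts are near the shares over all genes (18.8% lower and 24.5% higher) and near the 7 falls and 8 rises of the 30 ubiquitous genes, and are no result about the list. Rac2, a small GTPase of leukocyte migration, went from 105 ± 2.25 to 51.9 ± 0.755 FPKM and Vav1, a guanine nucleotide exchange factor, from 65.8 ± 1.37 to 34.6 ± 1.67. Rap1b and Lyn, an integrin-regulating GTPase and a Src family kinase, fell by 0.55 and 0.49 on the log2 scale. Rgs2, which limits G protein signals, rose from 15.6 ± 0.321 to 33.3 ± 0.843 FPKM. Adjusted p for the 5 lay between 1.11e-06 and 0.000162 (limma).

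**Figure D5:**
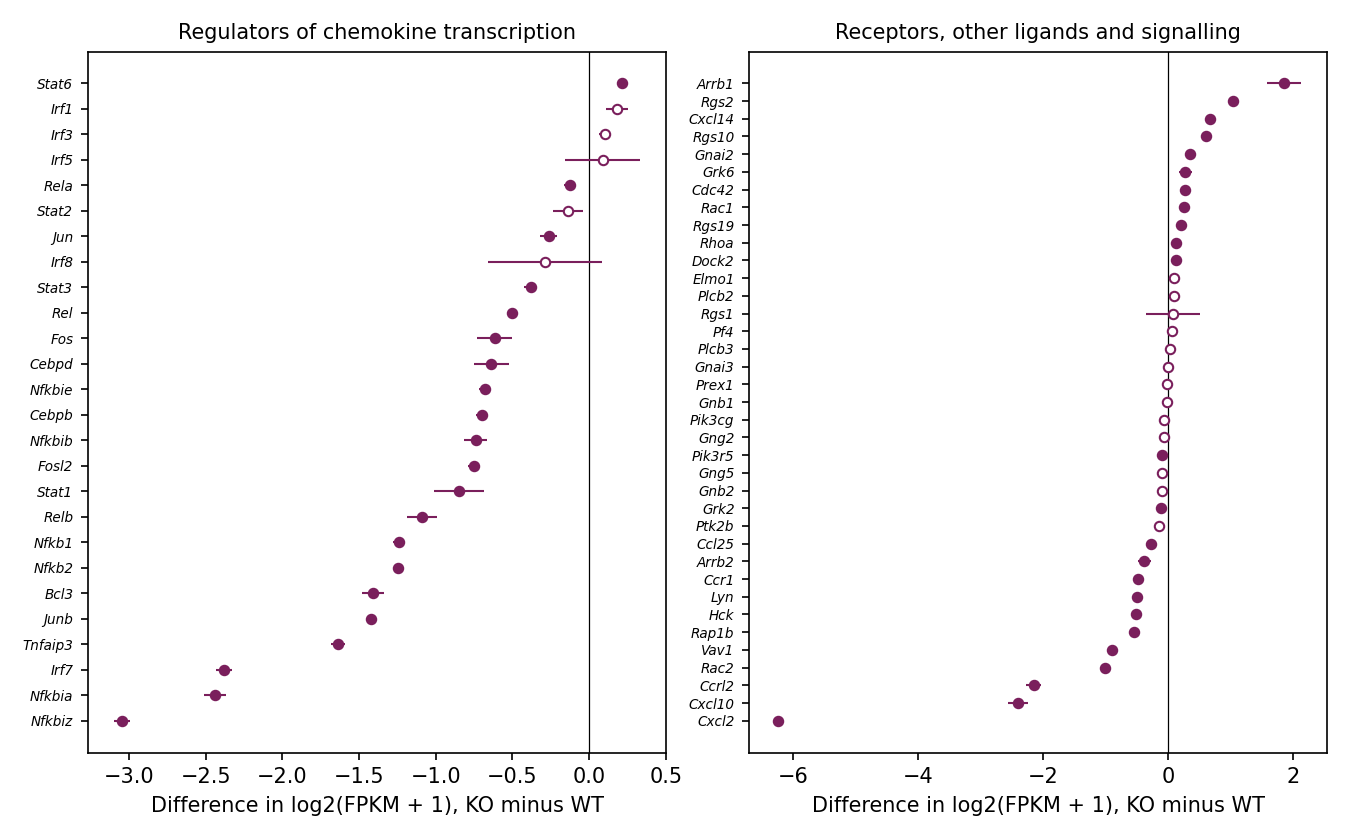
Difference in log2(FPKM + 1), KO minus WT arm, with SE from 3 libraries per arm, for the tested regulators (left) and for receptors, other ligands and signalling genes (right). Filled points passed an adjusted p of 0.05 in limma. Of the 26 regulators, 20 are filled and below 0. On the right, Cxcl2 is the lowest at -6.25, while signalling genes lie on both sides.

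The genes outside the member list whose profile over the 6 libraries lay nearest to Ccl3, Ccl2 and Ccl7, the members with the highest mean over all 6 libraries (in the KO arm Ccl7 was only the sixth), were found by root mean square distance of centred log2(FPKM + 1). For Ccl2 they were Acod1, the enzyme that makes itaconate (distance 0.0404, 354 FPKM in the WT and 13.3 in the KO arm), Nos2, the inducible nitric oxide synthase (0.218, 19.3 and 0.137 FPKM), and the cytokine Il6 (0.253, 18.0 and 0.114 FPKM). For Ccl3 they were the receptor gene Hcar2 (0.0576, 66.5 and 13.6 FPKM), Tarm1 (0.0612, 28.0 and 4.86 FPKM) and the cytokine Il1b (0.0672, 4.72 and 0.0851 FPKM). For Ccl7 they were Csf3, which encodes granulocyte colony-stimulating factor and was at a mean of 125 FPKM in the WT arm and listed at 0 in the KO arm (0.118), Lcn2 (0.323) and Cxcl2 (0.467). The distance is set mainly by the size of the difference between the arms, since the libraries of 1 arm lie close together. The added 1 FPKM compresses the difference of genes with low KO levels, so the ratios of the means of Il1b, Nos2, Il6 and Lcn2 are larger than nearness to a member would imply.

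Markers of other cells moved with the arms in part. The summed level of 15 neutrophil markers was 118 to 122 FPKM with WT and 1.80 to 2.64 FPKM with KO neutrophils. In the WT arm nearly all of it was Lcn2 (108.9 to 113 FPKM, against 0.048 to 0.314 in the KO arm) and Mmp9, which macrophages can also express. Both fell (adjusted p = 7.33e-08 and 7.38e-06, limma). The defining markers Ly6g, S100a9, Ltf, Elane, Mpo and Retnlg were listed at 0 in all 6 libraries, and the other 7 markers stayed under 1 FPKM. Among these low markers S100a8 (means of 0.405 and 0.11 FPKM), Camp (0.285 and 0.0902), Csf3r (0.621 and 0.302) and Cd177 had WT values that all lay above the KO values. Cxcr2 and Mmp8 overlapped between the arms, and Ngp was above 0 only in KO replicate 2 (0.0432 FPKM). A WT arm wholly above the KO arm was seen in 24.6% of the 11395 genes that passed the filter. That share leaves out genes as low as these. All 12 astrocyte and oligodendrocyte markers and all 12 lymphocyte and dendritic cell markers also stayed under 1 FPKM in every library. Of 5 tested microglia markers 1 fell (Cx3cr1) and 4 rose, with Trem2 at 12.0 ± 1.05 and 28.0 ± 0.364 FPKM. Of 12 shared macrophage markers 3 fell, 4 rose and 5 did not pass, beside 18.8% and 24.5% of all genes. Cd14, the lipopolysaccharide co-receptor, went from 474 ± 7.0 to 136 ± 1.66 FPKM, Adgre1, which encodes the macrophage surface protein F4/80, from 101 ± 2.67 to 39.3 ± 1.56 and Lgals3 from 270 ± 6.3 to 444 ± 11.04 (SD, n = 3). Cd68 and Ctsd, of the lysosome, rose by 0.40 and 0.46 on the log2 scale. Adjusted p for these 5 lay between 4.09e-08 and 0.000336 (limma). The part of these markers in the ligand differences was not tested.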

How the data were processed

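RNA was sequenced from 6 libraries of sorted microglia, 3 per neutrophil genotype, and titles gave the groups. FPKM values of 55335 gene identifiers were deposited by the authors in 1 table, with 1 column per library and none pooled. The submitters' processing notes name fastp 0.17.1, HISAT2 2.1.0, DESeq2 1.18.1 and R 3.4.3. The genome build, annotation, quantification program and counting strand are not given in the sources used here, and the library kit and sequencer named in the labels differ from those in the study's methods.

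Symbols and coordinates came from GENCODE M21 (GRCm38), where 55154 identifiers (99.67%) were found, and promoters from RefSeq. Fragment counts were sought from the steps between low values, of which 31.7% to 40.2% were whole within 0.05, against 10.0% by chance. They were therefore not recovered, and no count test was run. Without counts, no counting interval is given.

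Genes whose mean reached 1 FPKM were fitted with limma 3.58.1 in R 4.3.3 (lmFit, eBayes with a variance trend) on log2(FPKM + 1), KO minus WT arm, without covariates, and adjusted by the Benjamini-Hochberg method over 11395 genes. A change on this scale understates that of low genes. The script was tested on simulated data. The members and lists were chosen with earlier results of these data known, so members got no test and lists no set test. Of other CC ligands and receptors every gene past the filter was named, and of other lists up to 5 called genes with the smallest p, with exceptions stated and 1 microglia marker not reported here. Alternatives were a pseudocount of 0.1, no filter, a mean of 5 FPKM, a common sum, median centring, no variance trend, a replicate block and leaving out each library. Tables and figures were made with Python 3 (pandas, scipy, matplotlib).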

Additional observations from a re-analysis of the deposited data

How the results depend on the processing

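Of 100 recomputed log2 differences of single members none changed sign. The 14 that moved by more than the spread between replicates all came from the pseudocount of 0.1 or the common sum, with Ccl5 at -3.19 and Ccl12 at -3.57 under the former. The number of members with every WT library above every KO library was 7 to 8 when single libraries were left out, Ccl22 being the addition. Genes called across the table numbered 3763 to 4931. The call for the other CC ligands, Ccl25, was lost (0 called) without the filter and under the replicate block. Over the libraries left out one at a time it was lost in all cases except without KO replicate 3 (0 to 1 called). Under a mean of 5 FPKM Ccl25 did not pass the filter and was not tested. Receptors called were 4 without the filter and 1 at a mean of 5 FPKM, and CXC, XC and CX3C ligands called were 5 without the filter. Counts of regulators (17 to 21) and signalling genes (14 to 18) stayed near those reported, 21 and 18. A count test, planned in case reads could be recovered, was not run. With the replicate number as a block 4212 genes were called. Same-numbered libraries did not deviate together (r of -0.075, -0.052 and -0.005). Differently numbered libraries were not compared and the labels name no pairing, so whether the numbers are a pairing was not settled. The block lost only the Ccl25 call among the lists of receptors and other ligands. The cause of these moves was not tested. With 3 libraries per arm and no counts, values near 0 (Ccl12, Ccl17, Ccl22 and Ccl5 in the KO arm) rest on few fragments.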
